A study of Mus musculus with 6 samples.

Results

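The 278 genes described here are listed by the authors as long non-coding RNAs (lncRNAs) and carry the name of a host gene followed by the ending os, as or ot, as in Ptgs2os for Ptgs2. They were found by name among the 5385 genes of a lncRNA table, keeping symbols whose stem is itself a gene symbol in a table of 41126 genes, and leaving out symbols that begin with Hox and Kcnq1ot1. RNA was sequenced from 6 cultures of dermal fibroblasts from the ventral skin of P4 mice of mixed CD1 and C57Bl6 background. By the study's methods all cells carried 1 Ctnnb1 allele in which Cre deletes exon 3, so that a β-catenin resistant to degradation is made. The 3 control cultures received an adenovirus encoding GFP (AdGFP; +/+ in the genotype label, which gives no floxed allele) and the 3 gain of function (GOF) cultures an adenovirus encoding Cre (AdCre; Ctnnb1 Δex3/+). The treatment label of all 6 names AdCre, at a multiplicity of infection of 366 to 500 for 6 h. The study's methods give 366 to 500 for AdCre and 366 for AdGFP. Viral dose may therefore differ between the groups and cannot be told apart from the effect of β-catenin. The 6 h are those of the infection, and RNA was taken later. The titles open with 4 different numbers, read here as animals although the labels do not say so, and 2 of them occur in both groups. No culture of cells without the floxed allele that received Cre was analysed here, so the effect of Cre itself cannot be told apart from that of β-catenin.

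Antisense lncRNAs are transcribed from the strand opposite to a protein-coding gene. Some start from the same promoter region as the host and run away from it, some run across its exons, and some lie wholly in its introns. Individual members are known to act on the host locus in cis, to carry microRNAs, or to be by-products of an open promoter, and for many of them no function is known.

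By the GENCODE M21 annotation on GRCm38, 277 of the 278 lay on the strand opposite to the host, and Sox1ot lay on the same strand. The 278 named 236 hosts, and 73 of them shared a host with another member, so that members of 1 host are not independent. Head-to-head arrangement, with a start within 2000 bases of the host's start, was found in 88 members, of which 50 shared exon bases with the host and 30 did not overlap its body. Of the other members 102 shared exon bases, 74 overlapped the host body without shared exon bases, and 14 did not overlap the host. The members lay on 20 chromosomes, and 249 were annotated as antisense. Of the others 2 were annotated as protein-coding and 1 as a transcribed unitary pseudogene, although the lncRNA table lists them.

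The 6 libraries held 35980831 to 42834467 fragments in the all-gene table and 1022957 to 1726901 in the lncRNA table. Ctnnb1 itself was at 267 ± 16.3 FPKM in controls and 263 ± 28.8 in GOF (SD, n = 3), a measure that takes in the exons both alleles keep and so does not show the deletion. Axin2, a direct target of β-catenin, was at 0.152 ± 0.0218 FPKM in controls and 17.5 ± 2.66 in GOF. All 8 fibroblast markers were detected, with a summed level of 2110 to 2970 FPKM in controls and 904 to 1560 in GOF, and all 6 keratinocyte markers stayed under 1 FPKM in all libraries. Of 6 skeletal muscle markers Acta1 was called higher and the other 5 were under 1 FPKM, while the list sum was 22.7 to 26.9 in controls and 137 to 171 in GOF. The macrophage and leukocyte list summed to 10.8 to 19.3 in controls and 8.55 to 24.8 in GOF, with Csf1r called higher. That of Schwann cells and neurons summed to 21.3 to 31.7 and 11.8 to 28.0, with none called. Of the endothelial markers Tek and Kdr, 1 was called higher and 1 lower. Mlana of melanocytes and Fabp4 of adipocytes were called lower. In bulk RNA, fewer cells of a type and less RNA per cell cannot be told apart.

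Most of the members were close to silent in these fibroblasts. No fragment was found for 53 members in any library, 66 had 1 to 9 fragments over all 6 libraries, and 77 had at least 10 but too few to pass the filter on low counts, with at most 77. The remaining 82 members, 29.5% of the 278, passed the filter and were tested, against 25.8% of the lncRNA table. Among these the totals ran from 46 to 87799 fragments with a median of 221.

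A few members carried most of the signal. Prss23os, Dnm3os and Brip1os together held 79.7% of the fragments of all members, and Prss23os alone held 48.2%. Prss23os shares exon bases with its host, and there the fragments cannot be told apart if counting ignored strand, as described below. Prss23os, antisense to the serine protease gene Prss23, had FPKM values of 12028, 9551 and 6631 in the control libraries and 5581, 4058 and 11482 in the GOF libraries. These groups overlapped, and its log2 fold change of -0.38 ± 0.44 (adjusted p = 0.65) stood beside that of Prss23 at -0.37 ± 0.38 (adjusted p = 0.531). FPKM values of lncRNAs are given on the scale of the lncRNA table, which is not that of the all-gene table, so that levels are compared between libraries and not between a lncRNA and its host. Brip1os, next to the gene of a helicase that binds Brca1, was at 669, 635 and 565 in the control libraries and 569.9, 701 and 521 in the GOF libraries. Its groups overlapped too, with a log2 fold change of 0.03 ± 0.22 (adjusted p = 0.955). The other members among the 10 with the highest mean FPKM were Dnm3os, Ptgs2os2, Epb41l4aos, Rab26os, Rab10os, Phtf1os, Chrna1os and Sp3os, and of these 8 Dnm3os and Ptgs2os2 passed the test.

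Of the tested members 13 differed between GOF and control with an adjusted p under 0.05 and a change above 2-fold, 7 of them higher and 6 lower in GOF. This was 15.9% of the 82, where 9.36% of all 1389 tested lncRNAs were called. The 7 higher were 8.54% against 4.75% in the table and the 6 lower 7.32% against 4.61%. With the adjusted p alone 16 members passed, 19.5% against 11.6%. The median log2 fold change of the tested members was -0.07, and that of the table -0.08. The count of called members moved when 1 library was left out. It was 22 of 97 tested without Control 0, 7 of 87 without Control 1 and 6 of 88 without Control 2. It was 9 of 90 without GOF 0, 7 of 92 without GOF 1 and 12 of 87 without GOF 2. The share called over the lncRNA table in these smaller fits is not given here.

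**Figure D1:**
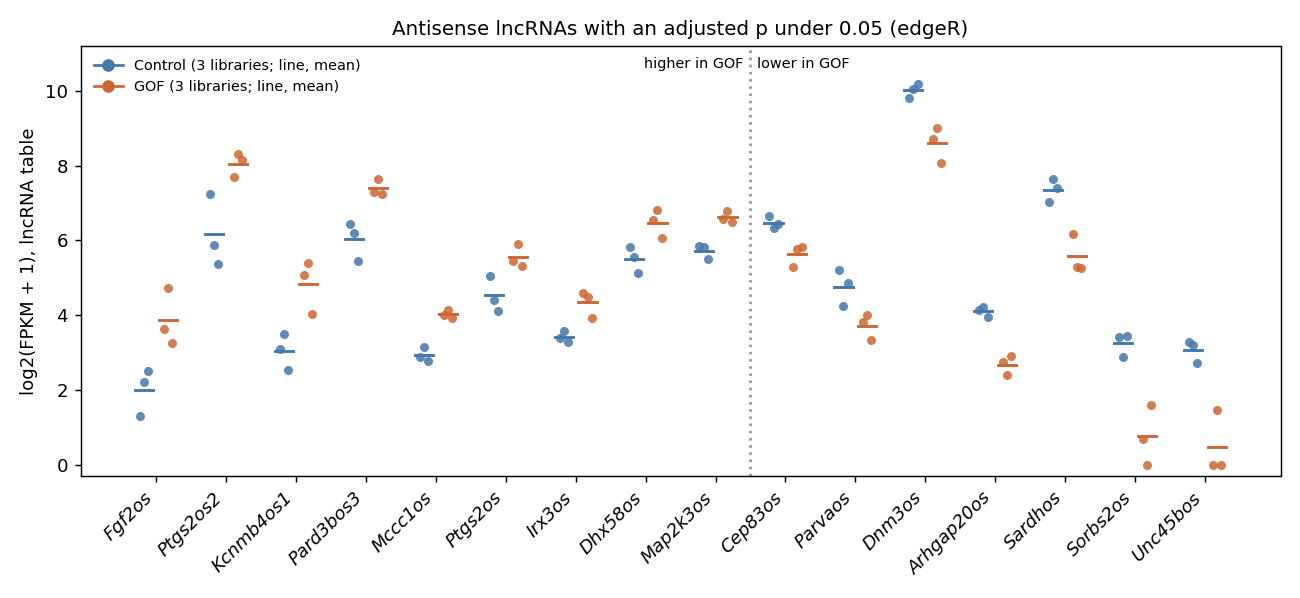
Level of the 16 antisense lncRNAs with an adjusted p under 0.05 in each library, as log2(FPKM + 1) of the lncRNA table on the y axis, with points for 3 control (blue) and 3 GOF (orange) libraries and lines for their means. The control and GOF points do not overlap for any of the 16, and Dnm3os is the most abundant of them.

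The FPKM ranges of the 2 groups did not overlap in 32 of the 82 tested members, 39.0%, where 26% of the tested lncRNAs showed this. All 16 members with an adjusted p under 0.05 were among them. The other 16, of which 6 were higher and 10 lower in GOF, did not pass the test. Nr6a1os, inside the gene of an orphan nuclear receptor, came closest, with 21, 26 and 20 fragments in the control libraries and 5, 0 and 10 in the GOF libraries and a log2 fold change of -2.15 ± 0.64 (adjusted p = 0.0558). Its adjusted p was under 0.05 in 7 of 16 alternatives, DESeq2 among them. Further members of this kind in the fit without a block were Zeb2os, antisense to a zinc finger repressor, at -0.84 ± 0.27 (adjusted p = 0.0767), and Stamos, head-to-head with a gene of endosomal sorting, at 0.85 ± 0.32 (adjusted p = 0.124). With the animal as a block the GOF effect rests on the 2 animals with a culture in both groups. Control 1 and GOF 1 have no partner there and add nothing to it. In this smaller comparison 19 members had an adjusted p under 0.05 in edgeR. Of these 4 were gained, namely Bach2os at 1.94 ± 0.49 (adjusted p = 0.00412), Nr6a1os at -1.60 ± 0.50 (adjusted p = 0.0206), Ppp1r18os at 1.48 ± 0.47 (adjusted p = 0.023) and Zeb2os at -0.95 ± 0.26 (adjusted p = 0.00837), and Arhgap20os was lost (adjusted p = 0.107).

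The members that rose included both antisense lncRNAs of Ptgs2, the gene of cyclooxygenase-2, which makes the precursor of the prostaglandins. Ptgs2os lies at chr1:150074873-150099963, minus strand, and its start is 68 bases upstream of the start of Ptgs2, from which it runs in the other direction. Ptgs2os2 lies at chr1:150159043-150164948, minus strand, and starts 64917 bases downstream of the start of Ptgs2, with no overlap of the gene. The stretch between the starts of Ptgs2os and Ptgs2 is shown because both transcripts leave from it and both rose.
Ptgs2os to Ptgs2: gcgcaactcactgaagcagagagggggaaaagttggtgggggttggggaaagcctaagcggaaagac
It covers chr1:150099964-150100030 of GRCm38 and is written on the plus strand, 5′ to 3′ towards Ptgs2. Capitals in this and the following stretches mark matches, on either strand, to the core bound by Tcf/Lef factors (CTTTG followed by AA, AT, TA or TT), to the CCAAT box, to the GC box (spelled GGGCGG) or to the TATA box (spelled TATAAA), and these 67 bases hold none. Of the 4 motif classes the last 3 were chosen after the data had been seen, and a match is only a match of letters.

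Ptgs2os was at 32, 20.4 and 16.4 in the control libraries and 42.3, 59.4 and 39 in the GOF libraries. The lowest GOF library was above the highest control, and the log2 fold change was 1.21 ± 0.28 (adjusted p = 0.019). Ptgs2os2 was at 149.8, 58 and 40.5 in the control libraries and 205, 316 and 282 in the GOF libraries, with Control 0 above the other controls and below all GOF libraries. Its log2 fold change was 2.04 ± 0.31 (adjusted p = 0.00222), and it passed the test under all 16 alternatives tried. Ptgs2os lost the adjusted p under 0.05 in 5 of 16 alternatives, among them the fits without Control 1, Control 2 or GOF 1.

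Ptgs2 itself was at 36.3, 25.2 and 24.2 in the control libraries and 298, 334 and 261 in the GOF libraries, with a log2 fold change of 3.40 ± 0.25 (adjusted p = 0.000276). The log2 fold change of each lncRNA was smaller than that of the host. The log2 ratio of Ptgs2os to Ptgs2 fragments was -6.90, -6.60 and -6.96 in the control libraries and -9.21, -9.03 and -8.93 in the GOF libraries, and that of Ptgs2os2 to Ptgs2 was -5.29, -5.36 and -5.56 in the control libraries and -7.15, -7.03 and -6.17 in the GOF libraries. In both pairs all GOF values lay below all control values, by 2.24 ± 0.14 and 1.38 ± 0.32 (SE, n = 3 per group) on the log2 scale, with p = 0.1 in a two-sided exact permutation test, the smallest that 3 against 3 libraries allow.

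**Figure D2:**
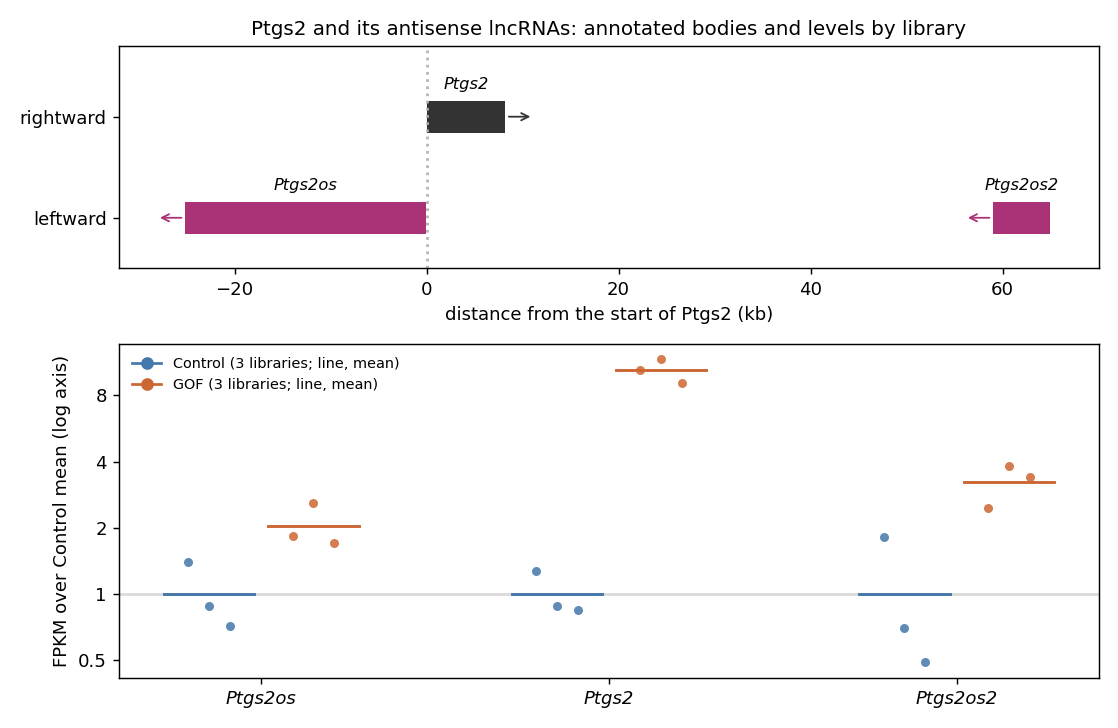
Upper panel, annotated bodies of Ptgs2 (black) and its antisense lncRNAs (purple) by direction of transcription, as distance in kb from the start of Ptgs2. Lower panel, FPKM of each gene divided by its control mean (log axis) for 3 control and 3 GOF libraries with their means. Ptgs2os starts 0.068 kb from the Ptgs2 start and Ptgs2os2 spans 59 to 64.9 kb, and the GOF points of all 3 genes lie above their control points.

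Other members rose beside a host that also rose. Kcnmb4os1, antisense to the gene of an accessory subunit of the BK potassium channel, was at 7.61, 10.2 and 4.81 in the control libraries and 32.5, 41.4 and 15.4 in the GOF libraries. All GOF libraries exceeded the controls, with a log2 fold change of 1.90 ± 0.40 (adjusted p = 0.0125) beside 1.81 ± 0.34 (adjusted p = 0.009) for Kcnmb4, and its adjusted p was above 0.05 without Control 2. Its neighbor Kcnmb4os2, at the start of the same host, was also higher in all GOF libraries but did not pass the test, at 0.83 ± 0.36 (adjusted p = 0.182). Mccc1os, head-to-head with a gene of leucine breakdown, was at 6.42, 7.9 and 5.82 in the control libraries and 15.1, 16.7 and 14.2 in the GOF libraries. Its groups did not overlap, at a log2 fold change of 1.35 ± 0.27 (adjusted p = 0.00889), and Mccc1 changed by 1.15 ± 0.20 (adjusted p = 0.00666).

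Irx3os, which starts inside the gene of the Iroquois homeobox factor Irx3, was at 9.43, 11 and 8.69 in the control libraries and 23.3, 21.6 and 14.3 in the GOF libraries. The log2 fold change of 1.08 ± 0.28 (adjusted p = 0.0297) was smaller than that of Irx3, 1.73 ± 0.20 (adjusted p = 0.00158), and the ratio of the pair was lower in every GOF library, by 0.71 ± 0.11 on the log2 scale (p = 0.1, exact permutation test). Irx3os did not keep an adjusted p under 0.05 in 8 of 16 alternatives. Map2k3os, head-to-head with the gene of a kinase that activates p38, was at 57.1, 55.4 and 44.1 in the control libraries and 94.8, 109 and 88.8 in the GOF libraries, again without overlap. Its change of 0.91 ± 0.20 (adjusted p = 0.0134) was below 2-fold, next to 1.17 ± 0.25 (adjusted p = 0.0166) for Map2k3. Map2k3os lost its adjusted p in 6 of 16 alternatives, among them the fits without Control 1 or Control 2, and Map2k3 without Control 1. The 165 bases between their starts, at chr11:60931868-60932032 on the plus strand, hold 3 GC boxes and 1 CCAAT box.
Map2k3os to Map2k3: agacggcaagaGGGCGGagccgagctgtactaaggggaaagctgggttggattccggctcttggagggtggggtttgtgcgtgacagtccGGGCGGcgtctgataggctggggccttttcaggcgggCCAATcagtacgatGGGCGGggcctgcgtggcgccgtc

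A rise of the lncRNA beside a host that did not pass the test was seen in Pard3bos3 and Fgf2os. Pard3bos3 lies in introns of Pard3b, a gene of the Par3 cell polarity family, 860437 bases from its start, at chr1:62456725-62499261, minus strand. It was at 86.5, 72.8 and 42.7 in the control libraries and 155, 200.4 and 149 in the GOF libraries, every GOF library being higher than every control. Its log2 fold change was 1.43 ± 0.24 (adjusted p = 0.00356) while Pard3b was at -0.25 ± 0.22 (adjusted p = 0.444), and the log2 ratio of the pair differed by 1.63 ± 0.37 without overlap (p = 0.1, exact permutation test). Pard3bos3 passed in all 16 alternatives. Fgf2os, which starts inside the gene of fibroblast growth factor 2, had 2, 7 and 10 fragments in the control libraries and 21, 40 and 17 in the GOF libraries. The groups did not overlap, and the log2 fold change was 2.07 ± 0.53 (adjusted p = 0.0294) against 0.53 ± 0.20 (adjusted p = 0.11) for Fgf2. This call was lost without Control 1, GOF 0 or GOF 1.

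Dnm3os was the most abundant member that fell. It lies at chr1:162217623-162225550, plus strand, inside introns of Dnm3, the gene of dynamin 3, on the opposite strand, and it is known as the precursor of a pair of microRNAs. RefSeq places Mir199a-2 and Mir214 within its body on its strand. Their mature sequences are shown with the seed, bases 2 to 8, in capitals, because the libraries measured their precursor and not them.
mmu-miR-199a-5p: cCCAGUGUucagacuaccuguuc
mmu-miR-199a-3p: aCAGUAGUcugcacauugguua
mmu-miR-214-5p: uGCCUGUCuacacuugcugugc
mmu-miR-214-3p: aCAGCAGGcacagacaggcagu
These lie at chr1:162217844-162217866, chr1:162217883-162217904, chr1:162223397-162223418 and chr1:162223438-162223459 of GRCm38.p6, all on the plus strand, and the 4 seeds differ.

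Dnm3os was at 893, 1048 and 1166 in the control libraries and 418, 512 and 267 in the GOF libraries. Every control library was above every GOF library, and the log2 fold change was -1.25 ± 0.33 (adjusted p = 0.0314). Dnm3 itself was at 1.88, 2.41 and 3.0 in the control libraries and 2.5, 2.26 and 1.01 in the GOF libraries, with overlapping groups and a log2 fold change of -0.33 ± 0.37 (adjusted p = 0.568). In fragments, not corrected for length, Dnm3os exceeded its host in all 6 libraries, with a log2 ratio of 4.99, 5.11 and 5.28 in the control libraries and 4.03, 4.15 and 4.50 in the GOF libraries, lower by 0.91 ± 0.16 in GOF (p = 0.1, exact permutation test). Of the 8 fibroblast markers 2, Dcn and Col1a2, were called lower in the same libraries and the others were not called. The part of the markers in this result was not tested. The adjusted p of Dnm3os was above 0.05 when any 1 library but Control 0 was left out, and reached 0.145 at most.

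The other members that fell were low. Sorbs2os, antisense to the gene of a cytoskeletal adaptor, had 19, 19 and 38 fragments in the control libraries and 2, 0 and 7 in the GOF libraries. Its log2 fold change of -3.02 ± 0.67 (adjusted p = 0.015) stood beside -3.0 ± 0.42 (adjusted p = 0.00296) for Sorbs2. Leaving out 1 library moved both, the lncRNA being at -2.44 without GOF 1 and -4.41 without GOF 2 and the host at -3.68 without GOF 2, and the call of Sorbs2os was lost without Control 2 or GOF 0. Sardhos, antisense to the gene of sarcosine dehydrogenase, had 17, 26 and 31 fragments in the control libraries and 10, 4 and 7 in the GOF libraries. It changed by -1.79 ± 0.39 (adjusted p = 0.0139) and Sardh by -2.15 ± 0.23 (adjusted p = 0.00105), and 4 of the 6 libraries (Control 1, Control 2, GOF 1, GOF 2) were each needed for the call. Arhgap20os had 18, 31 and 30 fragments in the control libraries and 10, 4 and 14 in the GOF libraries. The changes were -1.47 ± 0.42 (adjusted p = 0.0452) for the lncRNA and -2.11 ± 0.29 (adjusted p = 0.00271) for Arhgap20, and that of the lncRNA lost its adjusted p in 6 of 16 alternatives.

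Unc45bos, antisense to the gene of a myosin chaperone of muscle, had 11, 18 and 14 fragments in the control libraries and 0, 3 and 0 in the GOF libraries. Since no GOF library had more than 3 fragments, the level in GOF was at least 4.73-fold lower against a floor of 3 fragments per library (adjusted p = 0.0125), and the call was lost without GOF 0 or GOF 2. Unc45b had 31 fragments over all libraries and was not tested. Parvaos, in introns of the gene of α-parvin, an adaptor of integrin adhesions, was at 35.7, 17.9 and 28 in the control libraries and 13.1, 15.2 and 9.09 in the GOF libraries. Its log2 fold change was -1.07 ± 0.31 (adjusted p = 0.0483) where Parva was at 0.62 ± 0.21 (adjusted p = 0.0713), and it lost its adjusted p in 13 of 16 alternatives.

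Each lncRNA was then set beside its host in the all-gene table, where 171 of the 236 hosts were tested. Of these hosts 40 were called, 23.4% against 12.3% of all genes, 28 of them higher (16.4% against 6.69%) and 12 lower (7.02% against 5.64%). In 79 pairs both genes were tested, and in 50 of them (63.3%) the log2 fold changes had the same sign. This was so in 566 of 835 (67.8%) other antisense pairs, made of a lncRNA of the table without such a name and a protein-coding gene on the other strand that it overlaps or starts within 2000 bases of. In 11 pairs both genes had an adjusted p under 0.05. Of these 9 moved the same way (Ptgs2os, Ptgs2os2, Kcnmb4os1, Mccc1os, Irx3os, Map2k3os, Sorbs2os, Sardhos and Arhgap20os) and 2 moved in opposite ways (Dhx58os and Cep83os). All 52 such pairs among the other antisense lncRNAs moved the same way.

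**Figure D3:**
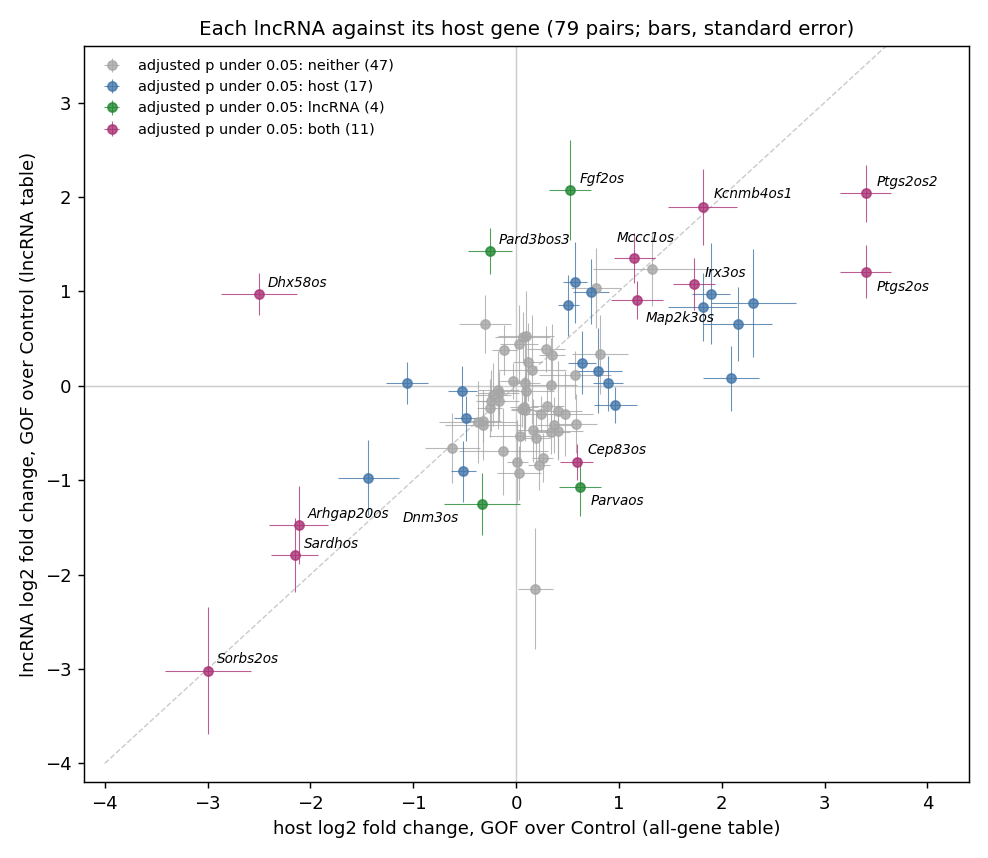
log2 fold change of each lncRNA (y axis, lncRNA table) against that of its host (x axis, all-gene table) for the 79 pairs with both genes tested, with standard errors as bars, colors for which of the genes had an adjusted p under 0.05, and a dashed line of equal change. Of the 11 pairs in which both passed 9 lie in the lower left or upper right, and Dhx58os and Cep83os lie in the other corners.

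The pair with the largest difference was Dhx58os and Dhx58, the gene of the RNA sensor LGP2. The 2 genes share exon bases, where their fragments cannot be told apart if counting ignored strand. Dhx58os was at 55.7, 46.3 and 33.7 in the control libraries and 92.1, 111 and 66.5 in the GOF libraries, without overlap, a log2 fold change of 0.97 ± 0.22 (adjusted p = 0.0177). Dhx58 was at 6.13, 2.22 and 4.18 in the control libraries and 1.08, 0.765 and 0.74 in the GOF libraries, a log2 fold change of -2.50 ± 0.37 (adjusted p = 0.0037). The log2 ratio of their fragments was -2.49, -1.23 and -2.11 in the control libraries and 1.23, 1.58 and 1.37 in the GOF libraries, so that the host had more fragments in every control and the lncRNA in every GOF library. The difference was 3.34 ± 0.39 (p = 0.1, exact permutation test). The call of Dhx58 held in all 14 alternatives, and the adjusted p of Dhx58os was above 0.05 in 6 of 16, at most 0.093.

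Cep83os and Cep83, a gene of the centriole's distal appendages, start 78 bases apart and run away from each other. The 77 bases between, at chr10:94688577-94688653 on the plus strand, hold 1 GC box and are shown because the 2 transcripts that leave them moved in opposite directions.
Cep83os to Cep83: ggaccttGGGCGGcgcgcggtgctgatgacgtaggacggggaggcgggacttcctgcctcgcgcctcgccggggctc
Cep83os was at 98.7, 80 and 85 in the control libraries and 37.9, 54 and 56 in the GOF libraries, and Cep83 at 4.29, 4.83 and 5.45 in the control libraries and 7.96, 7.22 and 6.82 in the GOF libraries. Neither gene's groups overlapped, with log2 fold changes of -0.80 ± 0.19 (adjusted p = 0.0194) and 0.59 ± 0.16 (adjusted p = 0.0359). Each of them lost its adjusted p in 8 alternatives (of 16 for Cep83os and of 14 for Cep83), while the ratio of the pair was lower in every GOF library, by 1.44 ± 0.22 on the log2 scale (p = 0.1, exact permutation test).

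In 17 pairs the host had an adjusted p under 0.05 and the lncRNA did not, and in 4 pairs the reverse held. In 11 pairs the host was called higher, the lncRNA was above 0 in all 11 with a median log2 fold change of 0.98, and 6 of the 11 lncRNAs had an adjusted p under 0.05. Among the other antisense pairs with a host called higher the lncRNA was above 0 in 30 of 35, with a median of 0.78, and 14 of the 35 had an adjusted p under 0.05. In 9 of the 11 pairs the fold change of the lncRNA was the smaller one. These pairs were picked by a cut on the change of the host and none on that of the lncRNA. The count therefore cannot show that the lncRNAs responded less. Has2os, across the start of the hyaluronan synthase gene Has2, was at 86.6, 37.3 and 17.4 in the control libraries and 59.7, 85.2 and 58.2 in the GOF libraries, and these groups overlapped. Has2 was at 13.7, 8.87 and 6.46 in the control libraries and 30.2, 54 and 43.1 in the GOF libraries, all GOF libraries being higher, so that the log2 fold changes were 0.65 ± 0.39 (adjusted p = 0.336) and 2.15 ± 0.34 (adjusted p = 0.00466). Chrna1os, upstream of the gene of the muscle acetylcholine receptor α subunit, was at 0.08 ± 0.35 (adjusted p = 0.919) beside 2.09 ± 0.28 (adjusted p = 0.00245) for Chrna1, a change of the log2 ratio of -2.02 ± 0.25 without overlap. Of the 6 muscle markers Acta1 was called higher in the same libraries and the other 5 were under 1 FPKM. The part of these markers in this result was not tested. Bach2os at 0.88 ± 0.57 (adjusted p = 0.388) and Chn1os3 at 0.98 ± 0.54 (adjusted p = 0.294) had hosts that encode a lymphoid transcription factor and a Rac GTPase activating protein, and Bach2os passed with the animal as a block, as given above.

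In 6 pairs the host was called lower, and the lncRNA was below 0 in 4 of them and above 0 in Dhx58os and Brip1os. Brip1os had no clear direction, at 0.03 (adjusted p = 0.955, edgeR) and below 0 in 3 of 16 alternatives. Among the other antisense pairs with a host called lower, the lncRNA was below 0 in 36 of 36. Tnfsf13os, antisense to the gene of the cytokine APRIL, was lower in all GOF libraries but did not pass the test, at -0.97 ± 0.40 (adjusted p = 0.153) beside -1.44 ± 0.29 (adjusted p = 0.0132). For Brip1, at -1.06 ± 0.21 (adjusted p = 0.0105), the log2 ratio of Brip1os to Brip1 fragments was 2.50, 3.48 and 3.52 in the control libraries and 4.32, 4.06 and 4.21 in the GOF libraries, higher in every GOF library by 1.03 ± 0.34 (p = 0.1, exact permutation test). The call of Brip1 was lost without GOF 0. Their starts are 177 bases apart, and the stretch between, at chr11:86201194-86201369 of GRCm38 and written on the minus strand towards Brip1, holds 3 CCAAT boxes and 3 GC boxes, of which 1 of each overlap.
Brip1os to Brip1: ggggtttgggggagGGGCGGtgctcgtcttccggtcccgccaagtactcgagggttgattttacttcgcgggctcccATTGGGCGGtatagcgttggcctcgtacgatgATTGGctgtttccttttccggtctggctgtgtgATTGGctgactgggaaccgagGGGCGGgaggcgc

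Over all 79 pairs the log2 ratio of lncRNA to host fragments differed between the groups by -3.13 to 3.34, with a median of -0.34. In 28 pairs (35.4%) the ratios of the groups did not overlap, 8 higher and 20 lower in GOF, beside 23.5% of the 835 other antisense pairs, where the median was -0.12. The ratio needs no scaling between libraries, since both fragment numbers come from the same library. The lowest value belonged to Nr6a1os, with a log2 ratio of -3.22, -3.59 and -3.80 in the control libraries and -5.91, -9.27 and -4.83 in the GOF libraries. It rests on GOF 1, which had 0 fragments and whose ratio is set by the added 0.5, and without that library the difference was -1.83, closer to 0 than that of Ptgs2os or Chrna1os. Next came Ptgs2os, Chrna1os and Parvaos, the last at -1.67 ± 0.25, and Bach2os at -1.53 ± 0.90, whose groups overlapped. At the other end followed Pard3bos3, Fgf2os at 1.53 ± 0.53, Brip1os and Dhrs13os at 0.94 ± 0.67, also with overlap.

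**Figure D4:**
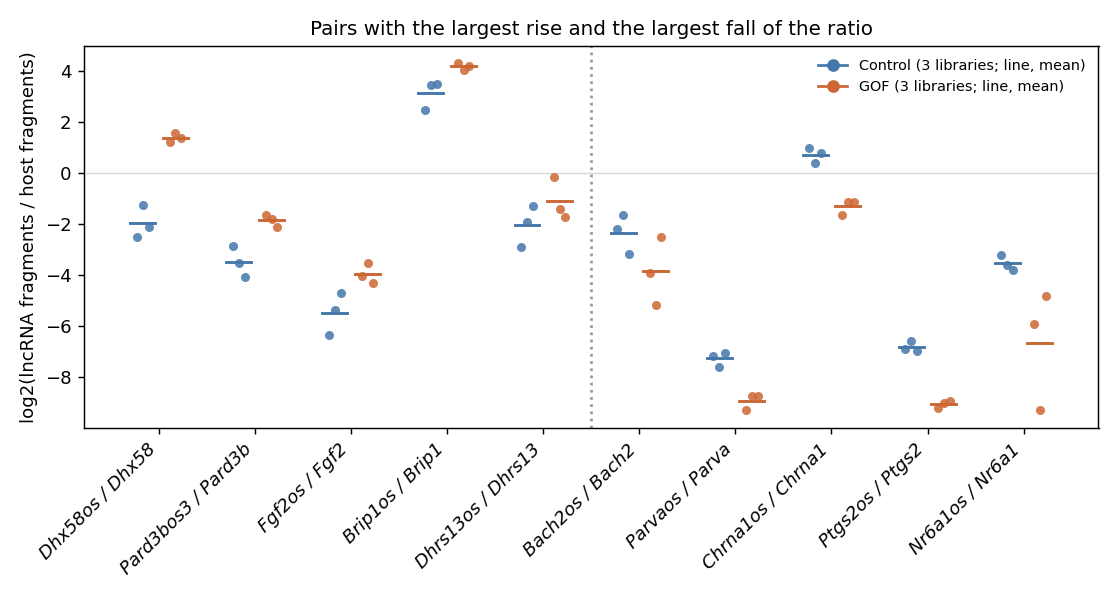
log2 ratio of lncRNA to host fragments in each library for the 5 pairs with the largest rise (left of the dotted line) and the 5 with the largest fall in GOF, with lines for the group means. Dhx58os moves from below 0 in 3 controls to above 0 in 3 GOF libraries, and the groups overlap in Dhrs13os and Bach2os.

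For 25 of the 40 called hosts no lncRNA could be tested. The called hosts had 33 untested members in all, some beside a tested one of the same host, with 0 to 77 fragments over 6 libraries and under 10 in 16 of them. Clnk, a gene of an immune cell adaptor, was at least 8.81-fold higher in GOF while Clnkos had no fragment, and Tmem132cos had none either beside 3.30 ± 0.56 for Tmem132c (3.92 without Control 2). Of the 33, 7 (21.2%) had FPKM ranges that did not overlap, all in the direction of the host, where 19 of all 196 untested members (9.69%) showed no overlap. They were Chn1os1, Lrrc8dos, Notumos, Spag17os, Erich2os and Grip1os1, higher in GOF, and Aknaos, lower.

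Notum encodes a secreted enzyme that inactivates Wnt proteins. Notumos, which shares 708 exon bases with it, had 1, 1 and 1 fragments in the control libraries and 2, 7 and 12 in the GOF libraries, and Notum changed by 4.35 ± 0.60 (adjusted p = 0.0028). Spag17os, antisense to a gene of motile cilia, had 0, 0 and 1 fragments in the control libraries and 8, 11 and 2 in the GOF libraries, and Spag17 changed by 4.19 ± 0.65 (adjusted p = 0.00453). Chn1os1 had 3, 3 and 1 fragments in the control libraries and 12, 23 and 35 in the GOF libraries, which is the highest total among the untested members. With so few fragments the changes of these lncRNAs were not tested. Of hosts that fell, Slfn5, a Schlafen gene, changed by -3.97 ± 0.49 (adjusted p = 0.00183) while Slfn5os had 0, 1 and 0 fragments in the control libraries and 0, 0 and 0 in the GOF libraries, and Fmr1, the gene mutated in fragile X syndrome, by -1.74 ± 0.15 (adjusted p = 0.000452) while Fmr1os had 5, 5 and 2 fragments in the control libraries and 1, 3 and 2 in the GOF libraries.

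The libraries were made with a stranded kit, but the sources used here do not state whether strand was used in counting, and where exons overlap without it the fragments of a lncRNA and its host cannot be told apart. Exon bases were shared in 152 of the 278 members and in 58 of the 82 tested ones. An even spread of a host's fragments over its exon bases would place at least 100 fragments on the shared bases in 64 members. Of these 14 had less than 0.1 of that number, 37 had between 0.1 and 1 times that number and 13 had more. Slfn5os shared 559 bases and had 1 fragment where the even spread was 1015. Uchl1os, antisense to a ubiquitin hydrolase gene, shared 295 bases and had 2 fragments for an even spread of 685. Prss23os shared 864 bases and had 87799 fragments for 26664, and its log2 ratio to Prss23 was -0.39, -0.34 and -0.43 in the control libraries and -0.44, -0.52 and -0.39 in the GOF libraries, nearly the same in each library.

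Called members occurred both among those that share exon bases and among those that share none. This split does not test whether counting ignored strand. Of the 58 tested members that share exon bases 7 were called (12.1%), and of the 24 that share none 6 were (25.0%). Over all tested lncRNAs the share was 9.36%. The direction was that of the host in 35 of 56 pairs (62.5%) with shared bases and in 15 of 23 (65.2%) without, beside 67.8% of all other antisense pairs. Of the 9 pairs in which both genes passed in the same direction, Kcnmb4os1, Mccc1os, Irx3os, Sorbs2os, Sardhos and Arhgap20os shared exon bases, 124 to 1051 of them. Their totals of 85 to 226 fragments stood beside even spreads of 47.1 to 166, with Sorbs2os and Sardhos below theirs. Ptgs2os, Ptgs2os2 and Map2k3os shared none. Of the 2 pairs that passed in opposite directions, Dhx58os shared exon bases with its host and Cep83os shared none.

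The all-gene table lists these lncRNAs too, together with their hosts. For 59 of the 82 tested members the summed fragments of the tables were within 5% of each other, and the lowest ratio of lncRNA table to all-gene table was 0.995. In 10 members the lncRNA table held at least 1.5 times as many, and 9 of these shared exon bases with the host. Fam219aos had 103 fragments against 2, Frmd8os 238 against 6, and Mxra8os 299 against 61. Prox2os was 2.92 and Faddos 2.79 times higher. None of the 13 called members was among these 10, and the largest ratio among the called was 1.23, of Arhgap20os.

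**Figure D5:**
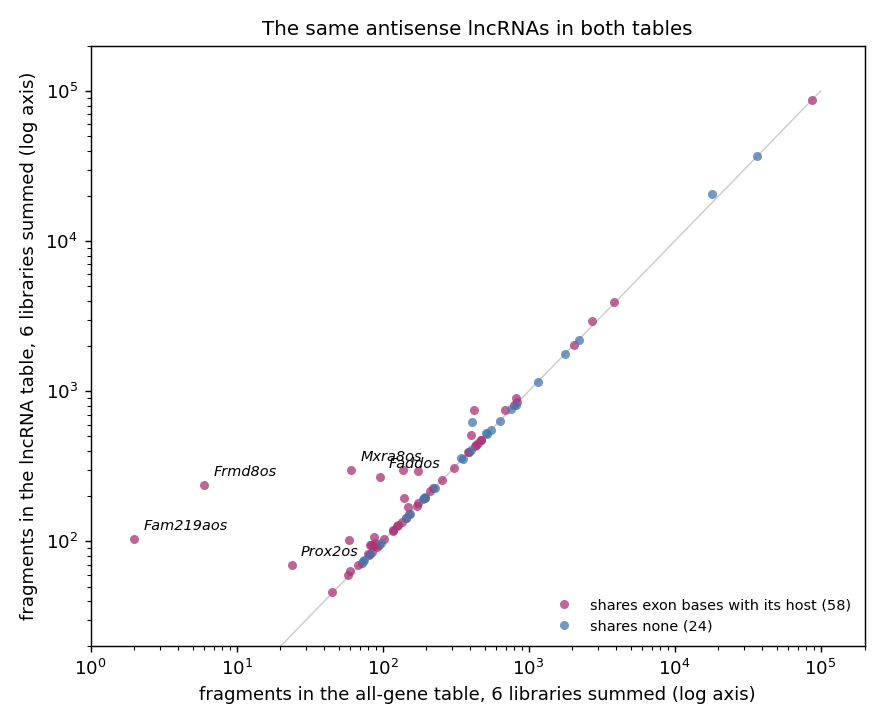
Fragments of the 82 tested members summed over 6 libraries in the lncRNA table (y axis) and in the all-gene table (x axis), both on log axes, colored by whether exon bases are shared with the host, with a line of equality. Most points lie on the line, and Fam219aos and Frmd8os lie farthest above it.

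Promoter windows of 300 bases, from 250 before to 50 after a RefSeq start, were found for 167 of the 278 members (200 windows) and 192 of the 236 hosts (278 windows). A Tcf/Lef core, in any of the 4 spellings given above and on either strand, was present in 15% of the member windows and 12.6% of the host windows, where 16.9% of all 32851 windows hold one. None of the 11 windows found for the 16 members with an adjusted p under 0.05 held it. CCAAT was present in 34.5% of member windows and 37.4% of all, and the GC box in 28.0% of member windows, 50.4% of host windows and 35.7% of all.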

How the data were processed

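Libraries from 3 control and 3 GOF cultures were read from 2 deposited tables, one of lncRNAs and one of all genes. Per the labels and the study's methods, the authors made stranded paired-end libraries, aligned them to mm10 by TopHat and used Cuffdiff at its standard settings. Versions and the strand setting of counting are not given in the sources used here. The estimated counts, deposited before any scaling, give the authors' Cuffdiff fragments for a gene in a library, and were rounded here. The FPKM values were deposited after scaling by the authors for length and library, separately in each table. Another 6 per-library value columns were not used, and 32 genes with a failed estimate were left out of the all-gene table.

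Identifiers were matched to GENCODE M21 (96.4% and 97.9%). Both tables were fitted whole in R 4.3.3 with edgeR 4.0.16 (TMM, filterByExpr, quasi-likelihood test, Benjamini-Hochberg adjustment over all genes tested, 1389 lncRNAs and 15462 genes), without a block. A gene was called at an adjusted p under 0.05 and a change above 2-fold. Errors of log2 fold changes are standard errors from that fit. Pair ratios were log2((lncRNA fragments + 0.5)/(host fragments + 0.5)) and were compared with a two-sided exact permutation test. The members, lists and tests were chosen with earlier results of these data known. The genes named are the called members and hosts with their partners, the 10 most abundant members, the 5 largest and 5 smallest ratio differences, the 5 highest ratios between tables, and members without overlap of FPKM, given as counts beyond the examples, plus Ctnnb1 and Axin2. Slfn5os, Uchl1os and the members of unmatched stems were named after their values were seen.

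On simulated counts edgeR recovered 179 of 200 genes changed 4-fold in the lncRNA table with 1 false call, and 198 of 200 in the all-gene table with 5. The simulated cultures were independent, without an effect of the animal and with the same dispersion for every gene. These numbers therefore check the procedure and do not measure the errors of the calls above. Replicates of a group differed by more than sampling noise. Same-numbered cultures did not deviate together (r = -0.41, 0.0539 and -0.441 over 15462 genes). The 2 pairs of cultures with the same number at the start of the title, taken as the animal, did (0.408 and 0.46). The main fit has no block, so its p-values treat the cultures as independent and leave this pairing out. Alternatives used other normalizations, filters, DESeq2 1.42.0, limma 3.58.1 on log2(FPKM + 1) and log2(FPKM + 0.1), blocks, and each library left out. Sequences came from GRCm38.p6 and RefSeq.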

Additional observations from a re-analysis of the deposited data

How the results depend on the processing

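The 13 called members became 26 with no filter on low counts (225 tested) and 20 when members needed 1 FPKM in at least 3 libraries (151 tested). They became 8 with limma on log2(FPKM + 0.1) and 6 to 22 with 1 library left out, and other alternatives gave 9 to 15. The shares called over all lncRNAs and over all genes in these fits are not given here. The counts of members and hosts in this section therefore do not show how either compares with its whole table. Of the 13, all were called with the fragments of the all-gene table and with no filter, 5 without Control 2 and 12 without Control 0. A replicate block by label number gave 10 called members and 34 called hosts, and a block by animal 15 and 41. The label numbers do not pair the cultures, whereas the cultures read as from 1 animal deviated together. In the block by animal the GOF effect rests on the 2 animals with a culture in both groups. The 40 called hosts became 26 with the FPKM filter and 21 with limma on log2(FPKM + 1), where low genes change less by construction, and 34 to 43 with 1 library left out. The 28 pairs without overlap became 47 of 218 when all pairs with at least 1 fragment each were taken, and 28 to 38 with 1 library left out. With fewer libraries a lack of overlap is easier to reach, so the last range cannot be set against the 28. The share of the other antisense pairs is not given here for these settings.

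The median log2 fold change of the tested members, -0.069, stayed near 0 and moved to -0.103 with library totals, -0.018 with DESeq2, 0.168 with no filter, 0.089 with the FPKM filter, -0.107 and -0.109 with limma on log2(FPKM + 1) and log2(FPKM + 0.1), -0.134 with the block by animal, -0.036 with library totals of the all-gene table, -0.197 with the fragments of the all-gene table and -0.104 to 0.01 with 1 library left out. That of the hosts moved from 0.187 to 0.085 with limma on log2(FPKM + 1), and was 0.102 to 0.216 with 1 library left out.

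Directions reversed in 32 of the single-gene comparisons, in genes near 0 that passed no test. With library totals Mkln1 was at -0.034, Peak1 at -0.025 and Zfp335 at -0.022. With limma on log2(FPKM + 1) Brip1os was at -0.068, Faddos at 0.026, Phtf1os at -0.109 and Peak1 at -0.035, and with log2(FPKM + 0.1) these were -0.068, 0.029, -0.109 and -0.036. With the block by animal Chrna1os was at -0.273, Phtf1os at -0.074 and Mkln1 at -0.027, and with the fragments of the all-gene table Brip1os was at -0.059. Over the fits with 1 library left out the values ran from -0.146 to 0.576 for Chrna1os, -0.321 to 0.402 for Faddos, -0.024 to 0.204 for Phtf1os, -0.462 to 0.071 for Prox2os, -0.119 to 0.318 for Rab26os, -0.018 to 0.076 for Mkln1, -0.161 to 0.163 for Peak1, -0.113 to 0.062 for Phtf1 and -0.112 to 0.163 for Zfp335. The causes were not tested. Depth limits the 196 untested members, whose absence of a call says nothing about change.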

Other observations

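A further 7 lncRNAs had a name of the same form whose stem was not a symbol of the all-gene table, and they entered no comparison. Nespas, antisense to the imprinted Nesp transcript of the Gnas locus, had FPKM values of 43.1, 101 and 82.1 in the control libraries and 40.9, 49.1 and 30.1 in the GOF libraries, with overlapping groups and an adjusted p of 0.269 (edgeR). Snhg7os was at 7.94, 0.371 and 2.74 in controls and 4.77, 19.1 and 13.6 in GOF, with an adjusted p of 0.123. Ccdc142os (adjusted p = 0.917) and Ict1os (adjusted p = 0.724) had overlapping groups, and Etos1, Myhas and Proscos had 7, 6 and 39 fragments in all and were not tested.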
